A study of Mus musculus with 119 samples.

Results

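The comparison was between the dorsomedial striatum (DMS) and the nucleus accumbens (NAc) of vehicle-treated mice, and asked which genes differ in level between the dorsal and the ventral striatum of the same animals. Libraries were chosen by the region and the treatment in their titles, which gave 12 vehicle DMS and 12 vehicle NAc libraries, 24 of the 119 libraries of the series, with 6 female and 6 male libraries in each region. Each was a polyA RNA-seq library from tissue punched out of frozen brain slices, and the NAc punch was taken further forward in the brain than the DMS punch. All mice received daily intraperitoneal vehicle injections (ethanol, Tween and saline, without delta-9-tetrahydrocannabinol, THC) from postnatal day 28 to 48. They were killed after behavioural tests. The labels give the strain as C57BL/6J and the age as 11 weeks, whereas the study's methods name C57BL/6NCrl. The tissue label of the DMS libraries reads dorsolateral striatum, and the title is followed here. The labels do not say which DMS and NAc libraries came from the same mouse, so that no mouse could be followed across regions, and p-values measure the spread between libraries. A region was always measured in a punch of mixed cells, so that fewer cells of a type and less RNA per cell cannot be told apart.

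The striatum is the input structure of the basal ganglia. Nearly all of its neurons are GABAergic medium spiny neurons (MSNs). These either express the dopamine D1 receptor and project directly to the output nuclei (direct pathway) or express the D2 receptor and an adenosine receptor and project through the pallidum (indirect pathway). The DMS receives associative cortical input and is known for goal-directed action, whereas the NAc receives limbic input from hippocampus, amygdala and prefrontal cortex and is known for reward and motivation. Patches called striosomes and the matrix around them carry different receptors and peptides, and a small number of cholinergic and GABAergic interneurons is spread through both regions.

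Levels are counts per 1000000 counts of a library (CPM, with edgeR's TMM scaling). They were compared between libraries and not between genes, because they are not divided by gene length. A log2 fold change is the DMS minus the NAc difference from edgeR's quasi-likelihood test with sex as a covariate, so that positive values are higher in DMS. A value alone in parentheses after a gene is its log2 fold change. A gene was called at a false discovery rate (FDR, Benjamini-Hochberg over all 16534 genes tested) below 0.05 when its log2 fold change was also 0.4 or more in size.

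The regional identity of the libraries was examined first. Adora2a, the adenosine receptor of indirect pathway neurons, ranged from 411 to 668 CPM (median 609) in the DMS and from 166 to 302 CPM (median 249.6) in the NAc. Sh3rf2, an MSN gene, ranged from 52.1 to 112 CPM (median 74.1) in the DMS and from 9.77 to 24.6 CPM (median 18.4) in the NAc. Every DMS library thus lay above every NAc library for both genes, with a log2 fold change of 1.26 (SE 0.082, FDR = 1.58e-12) for Adora2a and 2.05 (SE 0.10, FDR = 2.31e-14) for Sh3rf2. For Adora2a the NAc in turn lay above the vehicle libraries of the other 3 regions, whose means were 3.54 CPM in prefrontal cortex (PFC), 45.4 CPM in amygdala (Amy) and 2.25 CPM in ventral tegmental area (VTA). Both markers were detected in all 24 libraries.

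Library totals ranged from 17826631 to 24583805 counts in the DMS and from 12091765 to 37788972 in the NAc. The mean totals did not differ beyond their spread (permutation test, two-sided, adjusted p = 0.825 over 6 library measures). The number of genes with a count (adjusted p = 0.268), the share of values that are not whole (adjusted p = 0.289) and the share of counts in ribosomal protein genes (adjusted p = 0.615) missed the threshold as well. The share of counts in mitochondrial genes was 6.95% ± 0.639 (SD, n = 12) in the DMS and 4.78% ± 0.216 (SD, n = 12) in the NAc (adjusted p = 6e-05), with no overlap. The 10 most abundant genes of a library held 7.82% ± 0.883 of its counts in the DMS and 5.77% ± 0.422 in the NAc (SD, n = 12 each, adjusted p = 6e-05, from the smallest p that 100000 resamples allow). Expression of the X-inactivation and Y-linked genes matched the labelled sex in 24 of 24 libraries.

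A pair of DMS libraries stood apart from the other 10. The female DMS library FTL_285 held 207 CPM of Slc17a7, the vesicular glutamate transporter of cortical neurons, against 3.57 CPM at most in the other 11. It alone held much Ttr, the transthyretin gene of the choroid plexus (57.2 CPM against 0.650 at most). The male DMS library FTL_301 was the lowest of the DMS libraries for Adora2a, Sh3rf2 and Coch and the highest for genes of the ventral striatum and septum, such as Zic1 (98.6 CPM) and Dlk1 (41.0 CPM). The NAc libraries were uneven in genes of neighbouring tissue, since Slc17a7 ranged from 0.780 to 87.0 CPM (median 2.55) and Slc17a6, the vesicular glutamate transporter of subcortical neurons, from 2.57 to 26.2 CPM (median 10.3). With both of these DMS libraries left out, an alternative chosen after the libraries were compared, 2349 genes were called higher in DMS and 3112 higher in NAc. Genes for which these libraries were the highest of the DMS move further toward the NAc without them by construction. This holds for the larger differences given below without FTL_285 and FTL_301, which are descriptions only.

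The regions were also deposited in different tables, PFC and DMS in one and NAc, Amy and VTA in the other. Region and table therefore cannot be told apart in any value of this comparison. As a description, 337 of 17712 genes (1.90%) separated all vehicle libraries of the first table from all of the second, 175 of them higher in the first table and 162 higher in the second. Of these, 132 were called higher in DMS and 153 higher in NAc, calls that a complete separation of the DMS and NAc libraries favours by itself. The count covers complete separation only and sets no bound on an effect of the table in other genes.

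In all, 2142 of 16534 genes tested (13.0%) were called higher in DMS and 2887 (17.5%) higher in NAc, while the median log2 fold change of all genes was -0.006. With a size of 1 or more on the log2 scale, 492 genes (2.98%) were called higher in DMS and 963 (5.82%) higher in NAc. All 12 DMS libraries lay above all 12 NAc libraries for 1255 genes (7.59%), and all 12 NAc libraries lay above all 12 DMS libraries for 1664 (10.1%). DESeq2 called 2615 and 3403 genes, of which 2124 and 2732 were shared with edgeR. The counts for gene lists given next are read against 13.0% and 17.5% for calls and against 7.59% and 10.1% for genes without overlap. The lists were written with earlier results of these data known, so that their counts are descriptions only.

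**Figure D1:**
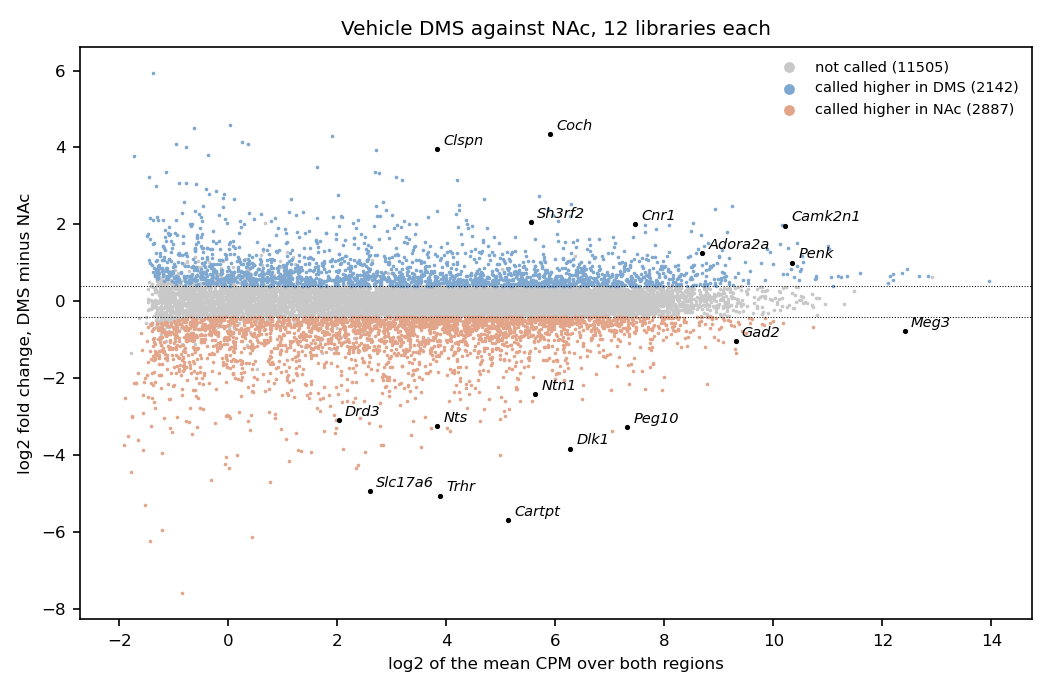
Each point is a gene, with the log2 of its mean CPM over both regions on the x axis and its log2 fold change (DMS minus NAc) on the y axis; dotted lines mark a log2 fold change of 0.4 either way. The called genes, 2142 higher in DMS and 2887 higher in NAc, lie at every level, and among the labelled genes Coch lies highest and Cartpt lowest.

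Genes common to both kinds of MSN were higher in DMS. Of 22 such genes tested, 19 were called higher in DMS and none higher in NAc, with a median log2 fold change of 1.04 against -0.006 over all genes. In 15 of the 22 every DMS library lay above every NAc library, as for 7.59% of all genes. Scn4b, a sodium channel beta subunit, ranged from 1161 to 2288 CPM (median 1878) in the DMS and from 329.9 to 636 CPM (median 444) in the NAc, a 3.94-fold difference (log2 fold change 1.98, SE 0.095, FDR = 8.82e-15). Rasd2, the striatal GTPase Rhes, ranged from 597 to 1076 CPM (median 914) and from 189.9 to 358 CPM (median 239.6) in the same order. The 12 libraries of each region were apart for both genes. Ppp1r1b, which encodes the dopamine- and cAMP-regulated phosphoprotein DARPP-32, had a log2 fold change of 1.42 (DMS 3009 ± 403, NAc 1121 ± 174 CPM, SD, n = 12 each). The cAMP phosphodiesterase Pde10a had a log2 fold change of 1.37, the actin cross-linker Actn2 1.61, Lrrc10b 1.99, and the RGS protein Rgs9 1.32. The 3 members that were not called were Gnal, the olfactory G protein alpha subunit that couples D1 and adenosine receptors to adenylyl cyclase (0.36), Meis2 (0.31) and Ankrd63 (0.18). The summed level of the 22 genes ranged from 15480 to 24010 CPM in the DMS and from 7245 to 12280 CPM in the NAc, and FTL_301 was the lowest of the DMS libraries.

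Direct and indirect pathway genes did not move as one group. Of 9 direct pathway genes tested, 4 were called higher in DMS and 2 higher in NAc, and of 8 indirect pathway genes 5 were called higher in DMS and 1 higher in NAc (13.0% and 17.5% of all genes). Drd1, the dopamine D1 receptor, ranged from 252 to 356 CPM (median 335) in the DMS and from 132 to 204 CPM (median 176) in the NAc (log2 fold change 0.92, SE 0.070, FDR = 1.79e-11). Drd2, the D2 receptor, ranged from 189.7 to 306 CPM (median 263) in the DMS and from 84.8 to 164 CPM (median 122) in the NAc (log2 fold change 1.11, SE 0.081, FDR = 1.41e-11). Both dopamine receptors were thus higher in every DMS library. The opioid peptide precursors split between the regions. Penk, the proenkephalin gene of indirect pathway neurons, ranged from 1208 to 2154 CPM (median 1721) in the DMS and from 644 to 1027 CPM (median 890) in the NAc (log2 fold change 1.00). Pdyn, the prodynorphin gene of direct pathway neurons, ranged from 64.5 to 125 CPM (median 90.8) in the DMS and from 165 to 308 CPM (median 256) in the NAc (log2 fold change -1.48, FDR = 2.09e-11). Tac1, the substance P precursor of the same direct pathway neurons, ranged from 143 to 221 CPM (median 205) and from 151 to 234 CPM (median 197) and was not called (log2 fold change 0.05, FDR = 0.541). Ebf1, a transcription factor of direct pathway neurons (1.45), and Chrm4, the muscarinic M4 receptor (0.62), were higher in DMS, and Isl1, which specifies direct pathway neurons, was higher in NAc (-0.47). Among indirect pathway genes the orphan receptors Gpr52 (0.93) and Gpr6 (0.82) were higher in DMS, and the kainate receptor subunit Grik3 was higher in NAc (-0.58).

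All 4 genes of a dorsal striatum list were called higher in DMS, and 11 of 12 of a ventral striatum list were called higher in NAc, with no member the other way. Both lists were written with earlier results of these data known, so that these counts describe the members and test nothing. Coch, which encodes the extracellular matrix protein cochlin and lies on chr12:51593341-51605771 (GENCODE vM21, GRCm38), ranged from 44.9 to 169.7 CPM (median 103) in the DMS and from 3.69 to 9.93 CPM (median 4.72) in the NAc. This 20.3-fold difference (log2 fold change 4.35, SE 0.18, FDR = 3.53e-15) was the largest toward the DMS among genes of at least 5 CPM whose libraries did not overlap. Cnr1, the cannabinoid receptor CB1, ranged from 153 to 407 CPM (median 278) in the DMS and from 50.3 to 136 CPM (median 64.7) in the NAc (log2 fold change 2.01, SE 0.17, FDR = 6.19e-10). The DMS was above every NAc library for Cnr1, although the lowest DMS library (FTL_301) and the highest NAc library (FTL_325, male) came close at 153 and 136 CPM. Reln, the secreted glycoprotein reelin, had a log2 fold change of 1.52 (DMS 203 ± 21.6, NAc 70.7 ± 14.8 CPM), and Gpr155 of 1.42 (DMS 196 ± 41.8, NAc 72.9 ± 5.27 CPM).

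Cartpt, the precursor of the CART peptides (chr13:99898489-99901091), ranged from 0.243 to 5.31 CPM (median 0.699) in the DMS and from 51.6 to 84.8 CPM (median 67.7) in the NAc, a 51.5-fold difference (log2 fold change -5.69, SE 0.27, FDR = 4.80e-14). Trhr, the thyrotropin-releasing hormone receptor, ranged from 0.195 to 3.14 CPM (median 0.712) and from 18.98 to 38.7 CPM (median 27.8) in the same order (log2 fold change -5.06). Neither gene overlapped, and the highest DMS library for both was FTL_301. Drd3, the dopamine D3 receptor of the ventral striatum, ranged from 0.219 to 1.93 CPM (median 0.856) in the DMS and from 5.48 to 8.44 CPM (median 7.38) in the NAc (log2 fold change -3.10, SE 0.18, FDR = 6.48e-14). Nts, the neurotensin precursor, ranged from 0.671 to 14.2 CPM (median 1.27) in the DMS and from 18.0 to 31.7 CPM (median 26.1) in the NAc (log2 fold change -3.24). Tac2, the neurokinin B precursor, ranged from 0 to 3.58 CPM (median 0.141) and from 4.89 to 11.4 CPM (median 8.04) (log2 fold change -3.86). DMS values under 1 CPM rest on few reads. Dlk1, an imprinted Notch ligand homologue, ranged from 1.65 to 41.0 CPM (median 6.25) in the DMS and from 107 to 192 CPM (median 147) in the NAc (log2 fold change -3.83). Peg10, an imprinted gene derived from a retrotransposon, ranged from 17.4 to 94.4 CPM (median 21.5) and from 179.9 to 443 CPM (median 284) (log2 fold change -3.27). Wfs1, the endoplasmic reticulum protein wolframin, ranged from 62.4 to 171 CPM (median 98.2) and from 289.8 to 537 CPM (median 389) (log2 fold change -1.98). Calcr, the calcitonin receptor, ranged from 0 to 2.98 CPM (median 0.0463) and from 4.79 to 16.7 CPM (median 9.30) (log2 fold change -4.26). The 12 libraries of each region were again apart for all of these. Without FTL_285 and FTL_301 the log2 fold change was -5.49 for Calcr and -4.57 for Tac2. On the unlogged scale both are over 1.5 times the fold with all libraries. The member that was not called was Crym, a thyroid hormone-binding protein, which ranged from 183 to 301.4 CPM (median 261) in the DMS and from 175 to 308 CPM (median 269) in the NAc (log2 fold change -0.05, FDR = 0.644).

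**Figure D2:**
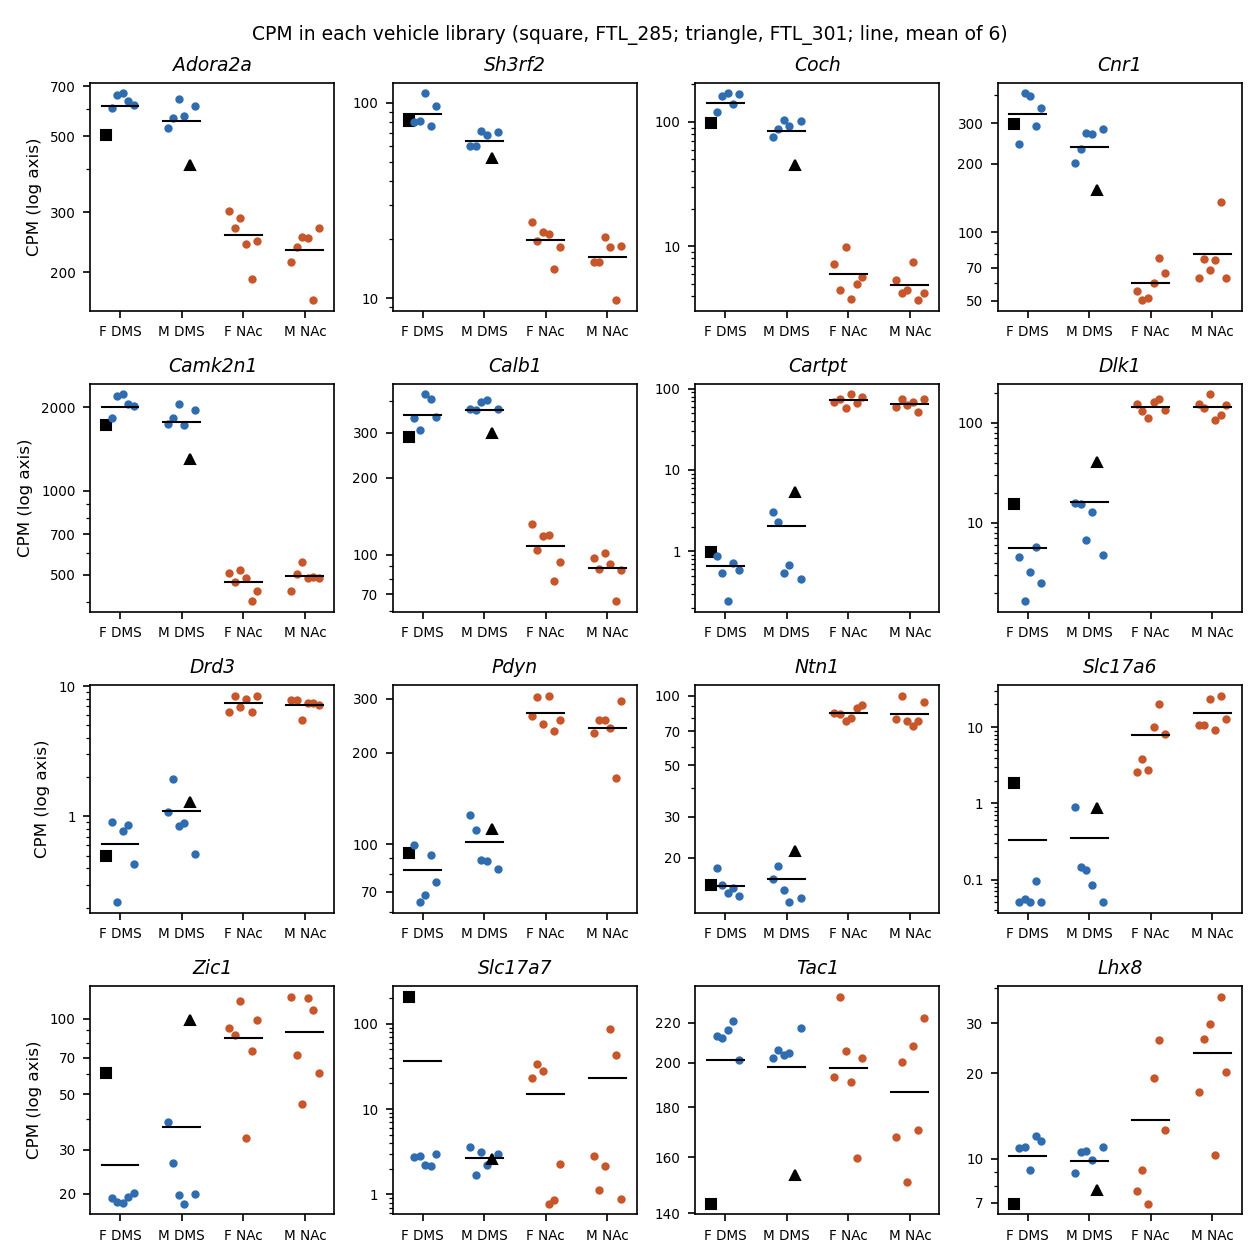
CPM on a log axis in each of the 24 vehicle libraries for 16 genes, by sex (F, M) and region, with the mean of 6 libraries as a line; values under 0.05 CPM are drawn at 0.05, the square is FTL_285 and the triangle FTL_301. Adora2a, Sh3rf2, Coch, Cnr1, Camk2n1 and Calb1 are higher in every DMS library and Cartpt, Dlk1, Drd3, Pdyn, Ntn1 and Slc17a6 in every NAc library, while Zic1, Slc17a7, Tac1 and Lhx8 overlap.

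Cartpt led the genes higher in NAc among called genes of at least 5 mean CPM whose libraries did not overlap. For this reason the promoters of 3 neuropeptide genes and of Coch are shown from RefSeq (GRCm38.p6). Each covers 250 bases before and 50 bases after the start site on the gene's own strand, 5′ to 3′. Capitals mark the cAMP response element TGACGTCA or, where it is absent, its core CGTCA, both searched on both strands. Cartpt and Nts were higher in NAc, and Coch led the genes higher in DMS by the same rule. Sst, the somatostatin precursor, was not called and serves as a known carrier of the element.
Cartpt, chr13:99900634-99900933, minus strand: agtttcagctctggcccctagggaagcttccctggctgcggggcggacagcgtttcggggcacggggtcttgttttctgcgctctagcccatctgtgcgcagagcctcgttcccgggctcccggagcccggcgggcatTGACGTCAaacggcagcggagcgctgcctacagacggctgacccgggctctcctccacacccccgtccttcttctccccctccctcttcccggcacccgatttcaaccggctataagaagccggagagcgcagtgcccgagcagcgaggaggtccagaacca
Nts, chr10:102490369-102490668, minus strand: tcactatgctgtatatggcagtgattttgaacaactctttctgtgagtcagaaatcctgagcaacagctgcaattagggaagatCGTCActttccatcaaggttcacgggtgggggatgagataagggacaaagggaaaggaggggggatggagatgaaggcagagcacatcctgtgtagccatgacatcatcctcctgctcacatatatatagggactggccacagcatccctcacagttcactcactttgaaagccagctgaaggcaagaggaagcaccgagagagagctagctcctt
Sst, chr16:23890795-23891094, minus strand: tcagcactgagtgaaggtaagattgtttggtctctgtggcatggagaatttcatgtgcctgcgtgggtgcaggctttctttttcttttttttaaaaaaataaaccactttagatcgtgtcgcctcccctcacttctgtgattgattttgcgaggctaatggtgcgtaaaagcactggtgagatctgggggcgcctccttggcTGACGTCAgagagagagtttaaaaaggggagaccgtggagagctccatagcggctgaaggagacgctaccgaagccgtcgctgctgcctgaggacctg
Coch, chr12:51593091-51593390, plus strand: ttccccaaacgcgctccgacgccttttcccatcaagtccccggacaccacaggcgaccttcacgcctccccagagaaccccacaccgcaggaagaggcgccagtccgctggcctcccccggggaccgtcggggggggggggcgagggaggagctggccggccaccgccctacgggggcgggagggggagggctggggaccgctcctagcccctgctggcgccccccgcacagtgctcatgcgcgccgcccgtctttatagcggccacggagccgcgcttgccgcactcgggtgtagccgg
The full element began 112 bases before the start site in Cartpt and 48 bases before it in Sst, while the Nts window held 1 core and the Coch window none. Of 24 neuropeptide precursors, 20 had a window, and only Cartpt and Sst held the full element in it. The element was in 588 of 32851 promoter windows (1.79%) and the core in 6837 (20.8%). By gene, it was in 412 of 12016 genes tested that had a window (3.43%), in 41 of 1450 genes called higher in DMS (2.83%) and in 50 of 2011 called higher in NAc (2.49%).

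Striosome and matrix genes differed in opposite directions for most members. Of 8 striosome genes tested, 6 were called higher in NAc and 1 higher in DMS (median log2 fold change -0.92), and of 5 matrix genes 4 were called higher in DMS and 1 higher in NAc (median 0.80). Oprm1, the mu opioid receptor that marks striosomes, ranged from 1.39 to 3.60 CPM (median 2.35) in the DMS and from 6.86 to 11.1 CPM (median 8.59) in the NAc (log2 fold change -1.89, SE 0.10, FDR = 6.86e-15). Calb1, the calcium buffer calbindin of the matrix, ranged from 289 to 424 CPM (median 369.6) in the DMS and from 65.7 to 131 CPM (median 95.4) in the NAc (log2 fold change 1.88, SE 0.092, FDR = 1.94e-14). Both genes separated the regions without overlap. Kcnip1, a potassium channel-interacting protein, had a log2 fold change of -2.53, Lypd1 of -1.65, the transcription factor Tshz1 of -1.15 and the semaphorin Sema5b of -0.69. Kremen1, a Wnt pathway gene of the striosome list, went the other way (DMS 34.5 ± 5.60, NAc 14.2 ± 2.33 CPM, log2 fold change 1.27). In the matrix list Id4 (1.27), the ephrin receptor Epha4 (0.80) and the synaptic vesicle protein Sv2b (0.69) were higher in DMS, and the guanine deaminase Gda was higher in NAc (-0.74).

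Of 24 neuropeptide precursors, 16 passed the filter on low counts, of which 2 were called higher in DMS and 8 higher in NAc, with a median log2 fold change of -0.91. The 2 higher in DMS were Penk and Npy, the neuropeptide Y precursor of somatostatin interneurons, which ranged from 39.3 to 48.9 CPM (median 45.5) in the DMS and from 19.1 to 32.2 CPM (median 24.8) in the NAc (log2 fold change 0.82, FDR = 1.46e-10). Crh, the corticotropin-releasing hormone, ranged from 0 to 1.3 CPM (median 0.294) in the DMS and from 0.879 to 10.6 CPM (median 5.22) in the NAc (log2 fold change -3.92, FDR = 2.67e-08). Pnoc, the nociceptin precursor, had a log2 fold change of -2.19, or -3.48 without FTL_285 and FTL_301. Sst ranged from 132 to 162 CPM (median 139) and from 84.8 to 147 CPM (median 104) and was not called, since its difference was smaller than the size required (log2 fold change 0.38, FDR = 3.70e-06).

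Among receptors for neuromodulators, 11 of 54 tested were called higher in DMS (13.0% of all genes) and 28 higher in NAc (17.5% of all genes), with a median log2 fold change of -0.53. Besides Cnr1, Adora2a, Drd1 and Drd2, the receptors higher in DMS included the serotonin receptor Htr1b, which ranged from 58.4 to 103 CPM (median 74.6) in the DMS and from 26.1 to 40.6 CPM (median 33.0) in the NAc (log2 fold change 1.22), its relative Htr1d (1.06) and the substance P receptor Tacr1 (1.04). Htr2c, a serotonin receptor coupled to Gq, ranged from 49.7 to 90.0 CPM (median 70.4) in the DMS and from 136 to 186 CPM (median 169) in the NAc (log2 fold change -1.28, FDR = 5.89e-14). Receptors higher in NAc thus included serotonin receptors as well, with Htr1a at -2.61. The log2 fold change was -2.16 for the neurotensin receptor Ntsr1, -1.92 for the oxytocin receptor Oxtr, -2.04 for the glucagon-like peptide receptor Glp1r, -1.37 for the melanocortin receptor Mc4r and -2.13 for the adrenergic receptor Adra2a. Glp1r stood at -2.92 and Adra2a at -3.01 without FTL_285 and FTL_301. Chrm5, the muscarinic M5 receptor (-2.97), was among the 10 genes that most widely separated the tables. Of 8 endocannabinoid genes tested, Cnr1 and Dagla, the enzyme that makes 2-arachidonoylglycerol (0.43), were called higher in DMS and Faah, which degrades anandamide (-0.80), higher in NAc (2 without FTL_285 and FTL_301). The Dagla values of the regions overlapped, and its difference lay near the size required. It was 0.27 in males and 0.26 in the THC libraries, and the call was lost under 3 of 36 alternatives. Mgll, which degrades 2-arachidonoylglycerol, was not called (-0.37).

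Genes of cAMP and G protein signalling were called higher in DMS for 11 of 26 members and higher in NAc for 6 (median log2 fold change 0.36). Rgs4, which speeds the shut-off of G protein signals, ranged from 469 to 1070 CPM (median 826) in the DMS and from 124 to 178 CPM (median 152) in the NAc (log2 fold change 2.39, SE 0.093, FDR = 3.31e-16), and it also separated the tables. Adenylyl cyclase 5 (Adcy5), the main striatal isoform, had a log2 fold change of 0.83 and the phosphodiesterase Pde1b of 1.18. Another phosphodiesterase, Pde1a, ranged from 22.5 to 62.7 CPM (median 27.1) in the DMS and from 117 to 201 CPM (median 148) in the NAc (log2 fold change -2.17, FDR = 9.18e-11). The adenylyl cyclase Adcy8 (-1.92) and Rgs16 (-2.04) were higher in NAc too, so that members of each enzyme family fell on both sides.

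Of 14 GABA-A receptor subunits, 2 were called higher in DMS, a share near the 13.0% of all genes, and 8 higher in NAc, against 17.5% (median log2 fold change -0.46). Gabrd, the extrasynaptic delta subunit, ranged from 144 to 198 CPM (median 183) in the DMS and from 49.3 to 94.0 CPM (median 73.9) in the NAc (log2 fold change 1.26, SE 0.087, FDR = 7.30e-12). Gabra4, the alpha 4 subunit with which it assembles, had a log2 fold change of 1.03. In the other direction were Gabra3 (-1.52), Gabrg1 (-1.52), Gabrq (-3.16) and Gabre, which ranged from 0.162 to 0.704 CPM (median 0.232) in the DMS and from 1.76 to 6.90 CPM (median 3.30) in the NAc (log2 fold change -3.58). Gad2, the GABA-synthesizing enzyme GAD65, ranged from 378 to 479 CPM (median 413) in the DMS and from 756 to 889 CPM (median 858) in the NAc (log2 fold change -1.03, SE 0.034, FDR = 3.02e-18), one of the 5 smallest p-values among the genes higher in NAc.

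Of 22 glutamate receptor genes, 3 were called higher in DMS and 6 higher in NAc, and 13 were not called (median 0.05). The share called higher in DMS was close to the 13.0% of all genes. Among those higher in DMS were the metabotropic receptor Grm5, which ranged from 476 to 554 CPM (median 533) in the DMS and from 293 to 454 CPM (median 389) in the NAc (log2 fold change 0.46), and the AMPA subunit Gria3 (0.55). Grin3a, an NMDA receptor subunit that lowers calcium permeability, ranged from 11.1 to 20.3 CPM (median 12.7) in the DMS and from 44.0 to 83.5 CPM (median 66.9) in the NAc (log2 fold change -2.23, SE 0.11, FDR = 3.50e-14). The kainate subunits Grik1 (-1.98) and Grik4 (-1.76) were higher in NAc as well. Voltage-gated potassium channels were split almost evenly, with 10 of 32 called higher in DMS and 11 higher in NAc, each above the share of all genes. Kcnab1, an auxiliary beta subunit, ranged from 387 to 648 CPM (median 583) in the DMS and from 167 to 269.8 CPM (median 217) in the NAc (log2 fold change 1.36). Kcns1 (1.65) and Kcnh4 (1.22) lay on the same side. Kcnc4, a subunit of the Kv3 family, ranged from 3.62 to 14.6 CPM (median 4.32) in the DMS and from 18.3 to 56.3 CPM (median 29.9) in the NAc (log2 fold change -2.53), with its relative Kcnc2 at -2.26.

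**Figure D3:**
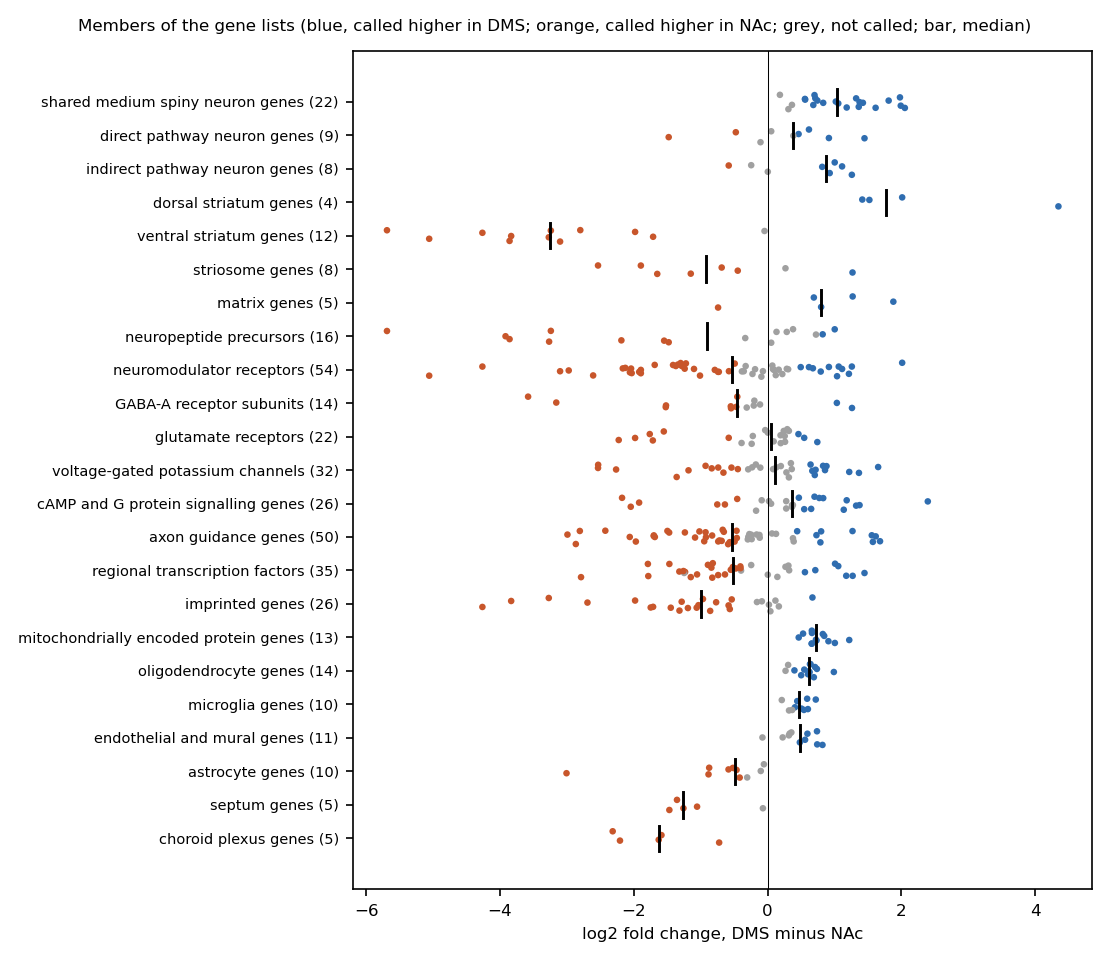
Log2 fold change (DMS minus NAc, x axis) of each tested member of 23 gene lists (y axis, number of tested members in parentheses), coloured by call, with the median as a bar. Shared MSN, dorsal striatum, mitochondrially encoded and oligodendrocyte genes lie to the right of 0, and ventral striatum, imprinted, septum and choroid plexus genes mostly to the left.

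Axon guidance genes, which steer growing axons, were called higher in DMS for 9 of 50 members and higher in NAc for 28 (median log2 fold change -0.53), against 13.0% and 17.5% of all genes. The share higher in DMS was thus near that of all genes. Ntn1, the secreted attractant netrin-1, ranged from 12.8 to 21.3 CPM (median 14.98) in the DMS and from 73.6 to 99.9 CPM (median 81.8) in the NAc, and its log2 fold change of -2.42 (SE 0.071, FDR = 1.40e-18) had the smallest p-value of all genes tested. Slit2, a secreted repellent, ranged from 2.78 to 20.5 CPM (median 5.47) in the DMS and from 42.7 to 70.1 CPM (median 59.1) in the NAc (log2 fold change -2.87). Its receptor Robo2 was higher in DMS, ranging from 149 to 224 CPM (median 212) in the DMS and from 51.1 to 82.0 CPM (median 62.6) in the NAc (log2 fold change 1.68), and so was the related Robo3 (1.56). Nrp2, a co-receptor for secreted semaphorins, ranged from 3.84 to 21.7 CPM (median 4.88) in the DMS and from 29.7 to 99.1 CPM (median 60.7) in the NAc (log2 fold change -2.99). Plexin D1 (Plxnd1), the receptor for Sema3e, ranged from 143 to 185 CPM (median 168) in the DMS and from 37.3 to 77.8 CPM (median 50.9) in the NAc (log2 fold change 1.62). Sema3e itself had a log2 fold change of 1.27. Plexin D1 and its ligand were thus both higher in DMS, whereas plexin A1 (-2.06) and the netrin receptor Unc5d (-2.81) were higher in NAc.

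Of 35 regional transcription factors, 7 were called higher in DMS and 20 higher in NAc (median -0.52), where 13.0% and 17.5% of all genes were. Foxp1, a factor of MSNs, ranged from 266 to 381 CPM (median 344) in the DMS and from 119 to 226 CPM (median 159) in the NAc (log2 fold change 1.06, FDR = 2.65e-12). Ikzf1 (1.18) and Meis1 (1.01) lay on the same side. Dlx2, a homeobox gene of the embryonic ventral forebrain, ranged from 1.77 to 16.2 CPM (median 3.24) in the DMS and from 11.6 to 21.1 CPM (median 16.1) in the NAc (log2 fold change -1.78). Tshz2 had a log2 fold change of -1.79 and Gsx2 of -2.79. Zic1, expressed in septum and ventral striatum, ranged from 18.3 to 98.6 CPM (median 19.8) in the DMS and from 33.4 to 123 CPM (median 89.1) in the NAc (log2 fold change -1.47), and FTL_301, FTL_285 and FTL_297 lay above the lowest NAc library. Genes of retinoic acid signalling fell on both sides, with 6 of 14 called higher in DMS and 5 higher in NAc (13.0% and 17.5% over all genes). Crabp2, which carries retinoic acid to the nucleus, ranged from 1.90 to 5.16 CPM (median 3.73) in the DMS and from 0.105 to 1.302 CPM (median 0.578) in the NAc (log2 fold change 2.65). The retinol carrier Rbp4 was at 2.01 and the synthesizing enzyme Aldh1a1 at 1.26. Another synthesizing enzyme, Aldh1a3, ranged from 0 to 0.704 CPM (median 0.127) and from 0.498 to 2.91 CPM (median 1.53) (log2 fold change -3.16). The retinol transporter Stra6 was also higher in NAc (-2.35).

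Imprinted genes, which are expressed mainly from the copy inherited from one parent, were called higher in NAc for 19 of 26 tested members, with a median log2 fold change of -0.999 against -0.006 over all genes and against 17.5% of all genes called in that direction. Peg3, a zinc finger gene expressed from the paternal copy, ranged from 315 to 403 CPM (median 345) in the DMS and from 594 to 919.8 CPM (median 702) in the NAc (log2 fold change -1.06, SE 0.062, FDR = 6.75e-14). Meg3, a noncoding RNA expressed from the maternal copy, ranged from 3614 to 4910 CPM (median 3891) and from 5621 to 7577 CPM (median 6857) (log2 fold change -0.77). Maternally and paternally expressed genes were therefore both among those higher in NAc, and in 16 of the 26 every NAc library lay above every DMS library, as for 10.1% of all genes. Magel2 (-2.69) and Zim1 (-1.98) followed Calcr, Dlk1 and Peg10, and the proteolipid gene Nnat (neuronatin) had a log2 fold change of -1.71. Without FTL_285 and FTL_301 the value was -3.67 for Magel2 and -5.49 for Calcr. The exception was Mkrn3, called higher in DMS at 0.67. Peg3, Dlk1, Magel2 and Zim1 also separated the tables, and so did the imprinted genes Rtl1, Usp29, Grb10, Blcap, Zdbf2 and Ndn. All of these were lower in PFC and DMS than in NAc, Amy and VTA. For them the region and the table cannot be told apart even across 5 regions.

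Called genes of at least 5 mean CPM whose libraries did not overlap were ranked by size, here and for the NAc side. The 15 leading genes on the DMS side by size were, besides Coch, Clspn, a DNA replication checkpoint gene (from 14.0 to 38.2 CPM (median 25.6) in the DMS, from 0.651 to 3.32 CPM (median 1.21) in the NAc, log2 fold change 3.95), and Casq2, a calcium-binding protein of the sarcoplasmic reticulum (from 11.3 to 18.9 CPM (median 15.4) and from 1.01 to 2.06 CPM (median 1.78), log2 fold change 3.23, FDR = 5.50e-18), which also had the smallest p-value of that direction. They were joined by E230025N22Rik (4.30), Atp6ap1l (3.94), Gm23971 (3.48), Sec14l3 (3.37), Gpx6 (3.34), Gask1b (3.16), Ddit4l (3.16), Gm6556 (2.76), Gm19410 (2.73), the endothelial receptor Acvrl1 (2.66), Gm39043 (2.59) and the actin-binding gene Nexn (2.52). Gm23971 ranged from 1.19 to 17.1 CPM (median 2.56) in the DMS, and its log2 fold change in the THC libraries was 0.80 and not called. Camk2n1, an inhibitor of the kinase CaMKII, ranged from 1298 to 2221 CPM (median 1890) in the DMS and from 401 to 555 CPM (median 488) in the NAc (log2 fold change 1.97, SE 0.067, FDR = 6.69e-18). With Camk2n1, the genes of smallest p were Rapgef4 (1.16), Cdk19 (1.12) and Stk32a (1.66). Camk2n1, Rapgef4, Cdk19, Atp6ap1l, Gask1b, Ddit4l and Gm19410 separated the tables.

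On the NAc side, the leading genes after Cartpt and Trhr were Slc17a6, Fgf10 (-4.33), Calcr, AW551984 (from 0.877 to 14.9 CPM (median 1.89) in the DMS, from 31.2 to 79.9 CPM (median 64.5) in the NAc, log2 fold change -4.01), Glt8d2 (-3.92), Tac2, Dlk1, Arhgap36 (-3.75), the diacylglycerol kinase Dgkk (-3.47), Stk32b (-3.43), Baiap3, the calcium buffer calretinin (Calb2, -3.38) and the thyroid hormone-inactivating deiodinase Dio3 (-3.36). Baiap3, which acts in dense-core vesicle traffic, ranged from 11.4 to 67.3 CPM (median 17.1) in the DMS and from 157 to 315 CPM (median 239.8) in the NAc (log2 fold change -3.38, SE 0.23, FDR = 2.46e-11). With Ntn1 and Gad2, the genes of smallest p were Tenm4 (-1.19), Prkar2a, a regulatory subunit of protein kinase A (-1.15), and Otof (-1.44). AW551984, Arhgap36, Dgkk, Stk32b, Baiap3, Dlk1 and Calb2 separated the tables. Without FTL_285 and FTL_301 the log2 fold change was -6.30 for Slc17a6 (-4.94 with them), -5.49 for Calcr (-4.26), -5.18 for Glt8d2, -5.15 for Fgf10 and -4.53 for Arhgap36.

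Cholinergic and GABAergic interneuron genes did not share 1 direction. Chat, the acetylcholine-synthesizing enzyme, ranged from 20.4 to 35.0 CPM (median 28.3) in the DMS and from 13.1 to 32.1 CPM (median 17.6) in the NAc (log2 fold change 0.59, FDR = 1.34e-04). In males alone the Chat difference was 0.29 and not called (edgeR, FDR = 0.145). The choline transporter Slc5a7 (0.46) and Slc17a8, the third vesicular glutamate transporter (0.51), were higher in DMS too. Lhx8, a transcription factor of the same neurons and of the basal forebrain, ranged from 6.96 to 11.99 CPM (median 10.6) and from 6.95 to 37.2 CPM (median 18.2) and was higher in NAc (log2 fold change -0.83), as was Gbx2 (-1.56). In all, 4 of 7 cholinergic genes were called higher in DMS and 2 higher in NAc. Calls were lost under 3 of 36 alternatives for Slc5a7 and Slc17a8, under 2 for Chat and Lhx8 and under 1 for Gbx2. The libraries of the regions overlapped for all 7 genes. Of 10 GABAergic interneuron genes tested, 2 were called higher in DMS and 5 higher in NAc, among the latter Nos1 (-0.51), Lhx6 (-0.89) and Calb2, which ranged from 1.32 to 7.53 CPM (median 2.29) in the DMS and from 13.6 to 47.2 CPM (median 28.3) in the NAc.

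Most oligodendrocyte, microglial and vascular genes were higher in DMS. Of 14 oligodendrocyte genes 12 were called higher in DMS and none higher in NAc (median log2 fold change 0.62). Their summed level ranged from 6527 to 9075 CPM in the DMS and from 3881 to 7149 CPM in the NAc. Mobp, a myelin protein, ranged from 960.3 to 1395 CPM (median 1193) in the DMS and from 478 to 833 CPM (median 569) in the NAc (log2 fold change 0.99, SE 0.082, FDR = 9.12e-11). Of 10 microglial genes 7 were called higher in DMS (median 0.47, with Trem2 at 0.72), with summed levels of 410.3 to 554.2 CPM and 319.9 to 456.4 CPM. Of 11 endothelial and mural genes 6 were called higher in DMS (median 0.48, with the pericyte gene Rgs5 at 0.82). Their summed levels, 299 to 377 CPM and 201 to 271 CPM, did not overlap. Astrocyte genes went the other way, with 7 of 10 called higher in NAc (median -0.49, summed levels of 2230 to 2778 CPM in the DMS and 2578 to 3200 CPM in the NAc). Agt, the angiotensinogen gene of astrocytes, ranged from 1.44 to 5.50 CPM (median 2.23) in the DMS and from 4.43 to 55.7 CPM (median 17.7) in the NAc (log2 fold change -3.005). The intermediate filament Gfap had a log2 fold change of -0.88. Of 7 oligodendrocyte precursor genes 4 were called higher in NAc, Pdgfra among them (-0.41). Its libraries did not overlap, but its difference lay at the size required and its call was lost under 9 of 36 alternatives, with -0.35 in the THC libraries. The summed level of the 7 genes ranged from 249 to 292 CPM in the DMS and from 305 to 421 CPM in the NAc. The part of these cell types in the differences of other genes was not tested. With the mean level of the oligodendrocyte genes as a covariate, 1800 genes were called higher in DMS and 2357 higher in NAc.

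Markers of tissue next to the punch were uneven between libraries. The summed level of 11 cortical projection neuron genes ranged from 14.1 to 308 CPM in the DMS (median 16.7), where the highest was FTL_285, and from 60.3 to 166 CPM in the NAc (median 72.3). Of its 7 members tested 2 were called higher in NAc, Bhlhe22 and Cux2 (-2.24), and 6 were with FTL_285 and FTL_301 left out. Both libraries had been set apart by genes of neighbouring tissue, so that shifts of such genes toward the NAc without them are built in. Septum genes had 4 of 5 members called higher in NAc (all 5 without both), among them Trpc4 (-1.35). Their summed level ranged from 27.5 to 171 CPM in the DMS and from 53.5 to 188 CPM in the NAc. Of 10 thalamus and hypothalamus genes 4 passed the filter, and 3 of these were called higher in NAc, Slc17a6 (-4.94), Tcf7l2 (-1.34) and Prkcd, and Rora was called higher in DMS. FTL_285 was the highest DMS library for Slc17a6 (1.86 CPM), which stood at -6.30 without it and FTL_301. The 3 claustrum genes summed to 46.5 to 70.4 CPM in the DMS and 68.4 to 83.9 CPM in the NAc, with 2 called higher in NAc. All 5 choroid plexus genes tested were called higher in NAc, among them Kl (-2.21) and Prlr (-2.31, or -3.37 without FTL_285 and FTL_301). Summed levels over the 10 listed genes were 14.3 to 94.4 CPM in the DMS and 38.6 to 63.8 CPM in the NAc. Ttr, the defining gene, was at 0.1 CPM or under in 11 of 12 NAc libraries. Genes of ependymal cells, which line the ventricle with cilia, summed to 9.29 to 153 CPM in the DMS and 10.9 to 66.9 CPM in the NAc, and none of 6 was called. Neuroblast and progenitor genes were called higher in NAc for 3 of 9 members, Dcx (-1.33), Sox11 (-1.23) and Dlx2. Without FTL_285 and FTL_301, 6 of the 9 were called, and the median log2 fold change moved from -0.92 to -1.42. Their summed levels were 30.7 to 211 CPM and 100.0 to 213 CPM. Dopamine neuron genes summed to 16.7 to 38.1 CPM in the DMS and 43.0 to 56.9 CPM in the NAc, with 3 of 5 tested called higher in NAc, or 4 without both libraries. Meningeal fibroblast genes were called higher in NAc for 3 of 7 members (95.2 to 125 and 99.7 to 247 CPM). Of 5 blood genes none was called (123 to 249 and 84.7 to 289 CPM). For the genes higher in NAc that neighbouring tissue also expresses, such as Slc17a6, Zic1, Lhx8 and Dlx2, the part of the punch in the difference was not tested.

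**Figure D4:**
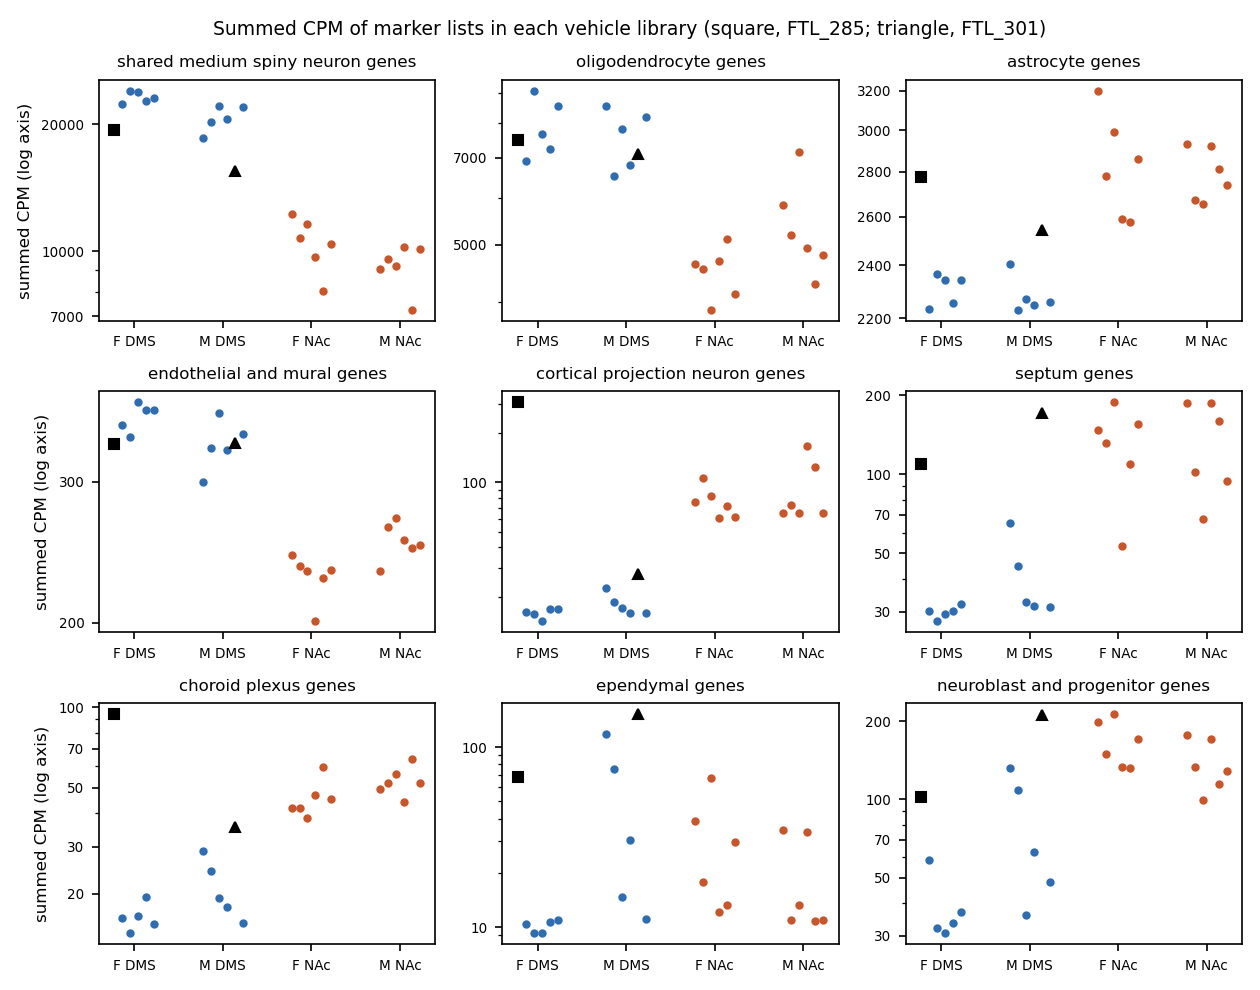
Summed CPM (log axis) of 9 marker lists in each vehicle library, by sex (F, M) and region; the square is FTL_285 and the triangle FTL_301. The shared MSN sum and the endothelial and mural sum separate the regions, whereas FTL_285 holds the highest cortical (308 CPM) and choroid plexus (94.4 CPM) sums of all 24 libraries and FTL_301 the highest septum sum of the DMS (171 CPM).

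All 13 protein-coding genes of the mitochondrial genome were called higher in DMS, with log2 fold changes from 0.47 to 1.22 (median 0.72). mt-Nd3, a subunit of respiratory complex I, ranged from 163 to 249.7 CPM (median 207) in the DMS and from 71.7 to 126 CPM (median 107) in the NAc (log2 fold change 1.00, FDR = 1.54e-09). Unlike mt-Nd3, 6 of the 13 (mt-Nd1, mt-Nd2, mt-Nd4, mt-Nd5, mt-Co1 and mt-Cytb) separated the tables, being higher in every vehicle library of PFC and DMS than in any of NAc, Amy and VTA. For these the region and the table cannot be told apart even across 5 regions. As a share of all counts, mitochondrial genes held 5.28% to 7.59% in vehicle DMS, 4.93% to 5.58% in vehicle PFC, 4.38% to 5.05% in NAc, 3.24% to 4.58% in Amy and 2.99% to 4.76% in VTA. The DMS thus held the highest median of the 5 regions, and both regions of the first table lay above the medians of the second. Of 80 cytosolic ribosomal protein genes 3 were called higher in DMS and none higher in NAc. Among 8 nuclear noncoding RNAs, Neat1 was higher in DMS (1.01), and Meg3, Mirg and Miat (-1.44) were higher in NAc.

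Genes that respond to recent neuronal activity were mixed, with 4 of 14 called higher in DMS and 3 higher in NAc, the latter a share near the 17.5% of all genes. Egr2 ranged from 2.47 to 12.8 CPM (median 3.87) in the DMS and from 0.853 to 3.52 CPM (median 1.75) in the NAc (log2 fold change 1.63). Its relatives Egr3 (1.14) and Egr1 (0.71) lay on the same side. Fos ranged from 0.824 to 9.19 CPM (median 3.28) and from 2.58 to 16.6 CPM (median 4.72) (log2 fold change -0.78, FDR = 0.0389) and Fosl2 had a log2 fold change of -1.17, both higher in NAc. Arc was not called (0.31). The Fos values overlapped widely, and its call was lost under 18 of 36 of the alternatives. Of 15 circadian clock genes, Dbp, which ranged from 214 to 274 CPM (median 234) in the DMS and from 127 to 165 CPM (median 155) in the NAc (log2 fold change 0.64), Hlf (0.67) and Arntl (0.63) were called higher in DMS and Per3 higher in NAc (-0.44), and 11, among them Per2 (-0.17), were not called.

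The same comparison within each sex used 6 libraries a region. In females 2279 of 16093 genes (14.2%) were called higher in DMS and 2628 (16.3%) higher in NAc, and in males 1900 of 16095 (11.8%) and 2584 (16.1%). Of the genes called higher in DMS, 1478 were shared, 64.9% of the female list and 77.8% of the male list, and of those higher in NAc 1906 were shared, 72.5% and 73.8%. In opposite directions were 1 of the genes higher in DMS in females and 2 of those higher in NAc in females. The log2 fold change of Coch was 4.56 in females and 4.10 in males, that of Cartpt -6.70 and -5.03, that of Adora2a 1.28 and 1.26 and that of Drd2 1.17 and 1.07. For Cartpt the difference between the sexes missed the threshold (interaction FDR = 0.144).

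A test of the difference itself, the interaction of sex and region, called 28 of 16848 genes (0.166%). Dhrs3, a retinaldehyde reductase, averaged 14.1 ± 2.24 CPM in female DMS, 10.4 ± 0.913 in female NAc, 7.92 ± 0.903 in male DMS and 10.6 ± 0.553 in male NAc (SD, n = 6 each), a log2 difference of -0.84 (male minus female, FDR = 0.017). The phosphatase Dusp3 (-0.43, FDR = 0.0175) and the phosphatase inhibitor Ppp1r2 (0.55, FDR = 0.0252) came next. With FTL_285 and FTL_301 left out 3 genes were called, which were Dhrs3 (-0.89, FDR = 3.27e-04), Dusp3 (-0.40, FDR = 0.0413) and Ppp1r2 (0.54, FDR = 0.0446). The other 7 of the 10 smallest p-values belonged to Galnt17, Tubb4a, Syt10, Rph3a, Clstn3, Cacng2 and Golga7b, whose log2 differences ran from -0.79 for Rph3a to 0.97 for Syt10. Without the same libraries the 25 genes no longer called lay just past the threshold, with FDRs from 0.0516 to 0.0831 (Pcsk1). Their log2 differences kept their direction. Some moved little, as for Galnt17 (-0.59 with all libraries and -0.57 without both), Syt10 (0.97 and 1.01) and P2ry1 (0.99 and 1.00). Others became smaller, as for Spock1 (-0.485 and -0.39) and Rph3a (-0.79 and -0.70). Spock1, Clstn3 (-0.37), Ece1 (-0.38) and Tuba4a (-0.37) then also lay under the size required.

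The THC libraries of the same regions, made from other mice in the same tables, called 2296 of 16565 genes (13.9%) higher in DMS and 2815 (17.0%) higher in NAc. They shared 1785 genes with the vehicle list higher in DMS (83.3% of the vehicle and 77.7% of the THC list) and 2461 with the list higher in NAc (85.2% and 87.4%), with 1 gene in opposite directions. The log2 fold change in the THC libraries was 4.29 for Coch, -5.58 for Cartpt, 1.05 for Adora2a, 1.72 for Sh3rf2, 1.91 for Cnr1 and -2.44 for Ntn1. These libraries carry the same confounding of region and table.

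Each region was placed beside the other regions of its own table, where the table is shared, as a description. The genes were chosen by their values in the same DMS and NAc libraries, which raises these shares by itself. Shares over all genes were not computed, so that the shares do not bear on the calls. Of the 2142 genes called higher in DMS, 1768 (82.5%) also had a higher mean in DMS than in PFC, and 555 (25.9%) had a lower mean in NAc than in both Amy and VTA, with 379 (17.7%) doing both. Of the 2887 genes called higher in NAc, 853 (29.5%) had a higher mean in NAc than in both Amy and VTA, and 2039 (70.6%) had a lower mean in DMS than in PFC, with 408 (14.1%) doing both. Over all 5 regions, scaled together over 59 vehicle libraries, Adora2a averaged 3.54 CPM in PFC, 592 in DMS, 243 in NAc, 45.4 in Amy and 2.25 in VTA, highest in both striatal regions. Coch averaged 17.0 CPM in PFC, 115 in DMS, 5.42 in NAc, 13.7 in Amy and 3.75 in VTA, so that the DMS was above PFC of its own table as well. Cartpt averaged 2.97, 1.36, 68.0, 25.1 and 14.0 CPM in the same order, and the NAc was above the other regions of its table. Drd3 averaged 7.23 CPM in NAc, 0.862 in DMS, 0.719 in Amy and 0.853 in VTA and was listed at 0 in PFC. Camk2n1 averaged 2073, 1909, 478, 596 and 508 CPM, where the means of the first table were all above those of the second.

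The 10 genes with the widest gap between the tables were Gm13112, AW551984, Chrm5, Gask1b, Baiap3, Atp6ap1l, Cpne7, Gabre, Samd14 and Rgs4, with gaps of 0.72 to 1.86 in log2 CPM between the nearest libraries of the 2 tables. Gask1b, Atp6ap1l and Rgs4 were higher in the first table and the others in the second. All 10 were called in this comparison, which a complete gap of this size between the DMS and NAc libraries brings by itself. Robo2, Nrp2, Epha4, Hlf and Pdgfra, described above, also separated the tables.

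**Figure D5:**
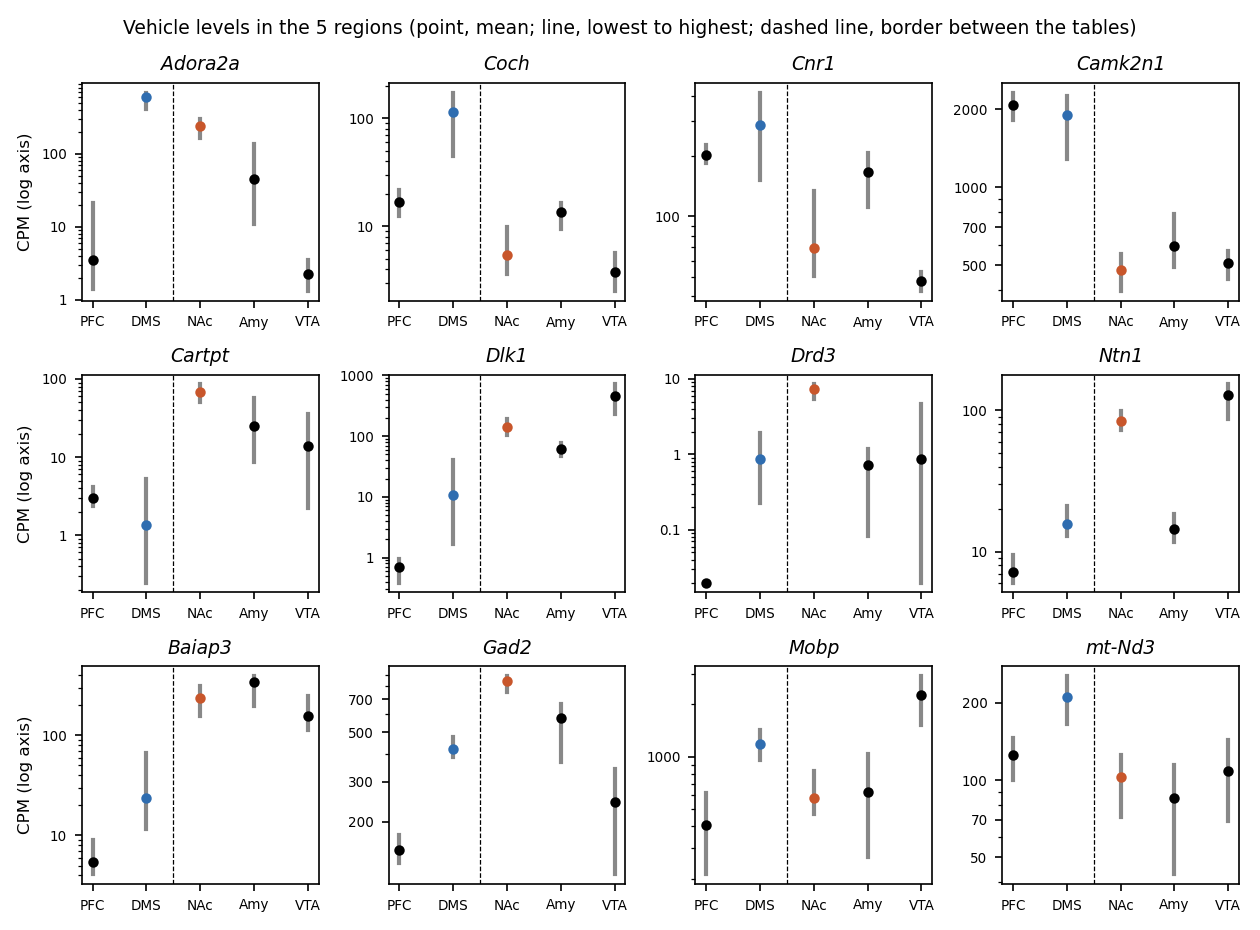
Mean CPM (point) and lowest to highest library (line) of 12 genes in the vehicle libraries of the 5 regions, on a log axis, with the border between the tables dashed; values under 0.02 CPM are drawn at 0.02. Adora2a, Coch, Cartpt and Drd3 differ within a table as well as between tables, whereas Camk2n1 and Baiap3 are on 1 side in both regions of the first table and on the other in all 3 of the second.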

How the data were processed

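PolyA directional paired-end RNA-seq was analysed from 24 vehicle libraries of 119, with the 24 THC libraries of the same regions and the vehicle libraries of PFC, Amy and VTA for comparison. Per the study's methods and the submitters' processing notes, the authors trimmed reads (cutadapt 2.9), aligned them to mm10 (STAR 2.7.3a) and estimated gene counts (RSEM 1.3.1). The values are deposited as RSEM's expected counts in 2 tables of 55291 genes, with no normalization. Estimated counts share reads between near-identical or overlapping genes, whose values are uncertain.

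Expected counts were rounded to whole numbers. Genes were filtered with filterByExpr, scaled with TMM and tested with edgeR 4.0.16 (R 4.3.3, robust quasi-likelihood, sex as covariate, Benjamini-Hochberg), which also gave every adjusted p of the gene tests. Females, males, the interaction and the THC libraries were fitted in the same way. Library measures were compared by permutation tests (100000 resamples). The alternatives were DESeq2 1.42.0, other filters and covariates, thinning to the shallowest library, and leaving out libraries or genes. The scripts were tested on simulated counts.

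Named genes were Adora2a and Sh3rf2, the 15 largest folds per direction among called genes of at least 5 mean CPM without overlap, the 5 smallest p per direction, members of the lists, 10 interaction genes and the 10 widest gaps between the tables. The members and lists were chosen with earlier results of these data known. Promoters were from RefSeq (GRCm38.p6) and gene positions from GENCODE vM21.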

Additional observations from a re-analysis of the deposited data

Results flagged for a closer look

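In each group of 6 libraries of 1 sex and region, the highest or the lowest library was singled out where its gap to the nearest other library was over 0.625 of the group's range, the value that chance passes in about 1 in 20 groups. Over 384 combinations of a group with a gene, list or library measure, 66 were singled out, 33 of them FTL_285 and 14 FTL_301. Genes and lists of 1 library move together, so that these are not 66 separate results.

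The female DMS library FTL_285 was the highest female DMS library for Dlk1 (15.6 CPM), Tac2 (0.497 CPM), Peg10 (38.8 CPM), Calcr (1.28 CPM), Gabre (0.704 CPM), Pde1a (62.7 CPM), Kcnc4 (14.6 CPM), Grin3a (20.3 CPM), Nrp2 (15.5 CPM), Slit2 (16.7 CPM), Zic1 (61.0 CPM), Peg3 (396 CPM), Calb2 (5.34 CPM), Slc17a6 (1.86 CPM), Slc17a7 (207 CPM), Ttr (57.2 CPM) and AW551984 (4.14 CPM). It was the lowest for Tac1 (143 CPM), Drd1 (259 CPM), Ppp1r1b (2477 CPM), Gabrd (147 CPM), Grm5 (476 CPM), Robo2 (193 CPM) and Crabp2 (2.73 CPM). It also had the highest summed level of cortical projection neuron genes (308 CPM), septum genes (109.5 CPM), thalamus and hypothalamus genes (86.7 CPM), astrocyte genes (2778 CPM), ependymal genes (67.7 CPM) and choroid plexus genes (94.4 CPM) and the lowest of shared medium spiny neuron genes (19360 CPM) and direct pathway neuron genes (694 CPM), and the number of genes with a count (22770) was highest there.

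The male DMS library FTL_301 was the highest male DMS library for Nts (14.2 CPM), Dlk1 (41.0 CPM), Tac2 (3.58 CPM), Peg10 (94.4 CPM), Grin3a (18.5 CPM), Zic1 (98.6 CPM) and Calb2 (7.53 CPM) and the lowest for Tac1 (154 CPM) and Calb1 (299 CPM). Among the male DMS libraries its summed level was the highest for septum genes (171 CPM) and dopamine neuron genes (38.1 CPM) and the lowest for direct pathway neuron genes (694 CPM). Its shares of counts in mitochondrial genes (6.43%) and in the 10 most abundant genes (6.92%) were the lowest of the same libraries. The cause was not tested for either library.

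Among the female NAc libraries, FTL_313 was highest for Gabre (6.90 CPM), Kcnc4 (43.8 CPM) and Agt (36.1 CPM) and lowest for Gnal (674 CPM) and Dbp (135 CPM). Among the male NAc libraries, FTL_323 was lowest for Drd3 (5.48 CPM) and Slit2 (42.7 CPM). It was highest for microglia genes (456 CPM) in sum and for the share of counts in the 10 most abundant genes (6.99%). Of the same male libraries, FTL_325 was highest for Cnr1 (136 CPM) and Ttr (0.0543 CPM) and for meningeal fibroblast genes (247 CPM) in sum, and lowest for Dbp (127 CPM). Single values were also apart within the libraries of the same sex and region. In the NAc these were in FTL_311 (lowest Tac2 (4.89 CPM)), FTL_312 (lowest sum of endothelial and mural genes (201 CPM)) and FTL_322 (lowest number of genes with a count (21230)). In the DMS they were in FTL_286 (highest Ntn1 (18.0 CPM)), FTL_288 (highest sum of blood genes (219 CPM)) and FTL_300 (highest share of values that are not whole (5.02%)).

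The DMS minus NAc difference differed between the sexes by edgeR's interaction test for 28 genes, of which the 10 of smallest p are given as the male minus the female log2 fold change. They were Dhrs3 (-0.84), Dusp3 (-0.43), Ppp1r2 (0.55), Galnt17 (-0.59), Tubb4a (-0.55), Syt10 (0.97), Rph3a (-0.79), Clstn3 (-0.42), Cacng2 (-0.55) and Golga7b (-0.53). Dhrs3, Dusp3 and Ppp1r2 were still called with FTL_285 and FTL_301 left out.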

How the results depend on the processing

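With 1 library left out at a time, 2106 to 2406 genes were called higher in DMS and 2677 to 3061 higher in NAc. DESeq2, its size factors, no filter on low counts, no sex covariate, all 59 vehicle libraries in 1 fit, libraries thinned to the shallowest, either cell type covariate, leaving out the genes that separate the tables, and leaving out FTL_285 and FTL_301 (chosen after seeing the data) gave between 1800 and 2615 genes higher in DMS and between 2357 and 3898 higher in NAc, both within 1.5 times the reported count.

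A log2 fold change of at least 1 left 492 genes higher in DMS, 963 higher in NAc, 1440 called in females, 1351 in males, 1384 in the THC libraries and 0 in the interaction, where edgeR gave 2928 unadjusted p-values under 0.05. The interaction count of 28 became 183 with DESeq2, 11 with no filter on low counts and 3 without FTL_285 and FTL_301. In this last fit, with fewer libraries, the 25 genes lost had FDRs from 0.0516 (Galnt17) to 0.0831 (Pcsk1) and log2 differences of the same direction. Some differences were smaller, and those of Spock1, Clstn3, Ece1 and Tuba4a also fell under the size required. The cause was not tested for the other 2 settings.

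Directions turned for 3 genes that were not called: Tac1 to -0.035 with the cortical covariate and -0.053 in THC libraries, Crym to 0.15 with the oligodendrocyte covariate and 0.18 in males, and Slc17a7 to 0.088 without the sex covariate, 1.27 with the cortical and 2.55 with the oligodendrocyte covariate, 0.090 without the NAc library FTL_324 and 1.33 in females. Slc17a7 was at -2.83 without FTL_285. Both covariates differ between the regions, so that a fit with them takes up part of the region.

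No paired analysis was possible because the labels give DMS and NAc libraries no replicate number in common. Depth limits genes under 1 CPM, and the region and the table cannot be told apart.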
